A study of Mus musculus with 2 samples.

Results

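Müller glia were taken here as the cells that met a marker rule in 2 droplet single-cell RNA libraries of mouse ciliary epithelium, 195 of 3865 cells in library 1 and 735 of 5466 cells in library 2, and so 930 of 9331 cells in all. The cells were chosen by measured counts. A cell met the rule if 500 genes or more were detected in it, if mitochondrial genes gave no more than 30% of its unique molecular identifiers (UMIs), and if it had at least 3 of the 8 genes Glul, Rlbp1, Abca8a, Crym, Gpr37, Spc25, Sox2 and Prss56, 2 or more UMIs of Glul and Rlbp1 together, and no UMI of Rpe65, Optc or Best2. These cells are called gated cells below. Both libraries came from C57BL/6 mice at postnatal day 35, with no genetic change or treatment given in the labels, and each pooled dissected tissue of several eyes, 3 sets for library 1 and 3 or 4 sets for library 2, where the labels differ. A pool is 1 sample, so the libraries are 2 samples of 1 group. Because the 8 genes chose the cells, their levels are given as a description and were not tested.

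Müller glia are the radial glia of the retina. Their processes span the neural retina between an inner and an outer limiting membrane, take up glutamate released by neurons, convert it to glutamine, buffer potassium and water, and recycle retinoids for cones. They share an optic cup origin, and many transcription factors, with the epithelia of the ciliary body. In fish they can divide and replace lost neurons, whereas in mammals they usually respond to injury by gliosis.

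The gated cells had a median of 4300 UMIs and 1995 detected genes in library 1 and 6847 UMIs and 2750 detected genes in library 2, against 4128 and 2968 UMIs over all cells of the same libraries. They made up 5.05% of the cells of library 1 (4.38 to 5.78%) and 13.4% of those of library 2 (12.6 to 14.4%, both exact 95% binomial bounds after Clopper and Pearson). The intervals do not overlap, they cover counting error only, and 1 pool against 1 pool allows no test. Without the cells that also met the gate of another class (below), the shares were 2.46% and 1.12%, so the order of the libraries turned round. The 2 libraries shared 11 cell barcodes, of which 1 belonged to a gated cell of library 1 and 0 to a gated cell of library 2. No caller of doublets was run.

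The number of rule genes detected split the gated cells. In library 1, 75 cells had 3 of the 8 genes, 19 had 4, 27 had 5, 30 had 6, 35 had 7 and 9 had all 8. In library 2 the numbers were 320, 147, 71, 90, 84 and 23. Thus 101 gated cells of library 1 (51.8%) and 268 of library 2 (36.5%) had 5 to 8. Just outside the rule, 328 cells of library 1 and 714 of library 2 had 2 of the 8 genes and met the other conditions. Levels are given as CPM, the UMIs of a gene over all UMIs of the summed cells of a library, scaled to 1e+06. The glutamate transporter gene Slc1a3 was at 43.1 and 19.6 CPM in libraries 1 and 2 in the gated cells with 3, just inside, and at 17.1 and 15.2 CPM in the cells with 2. Further, 15 and 46 cells had 1 UMI of Glul and Rlbp1, beside 16 and 85 gated cells with 2 such UMIs. A further 33 and 100 cells failed only because Rpe65, Optc or Best2 was detected. The split at 5 genes was chosen after the levels below had been seen.

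**Figure D1:**
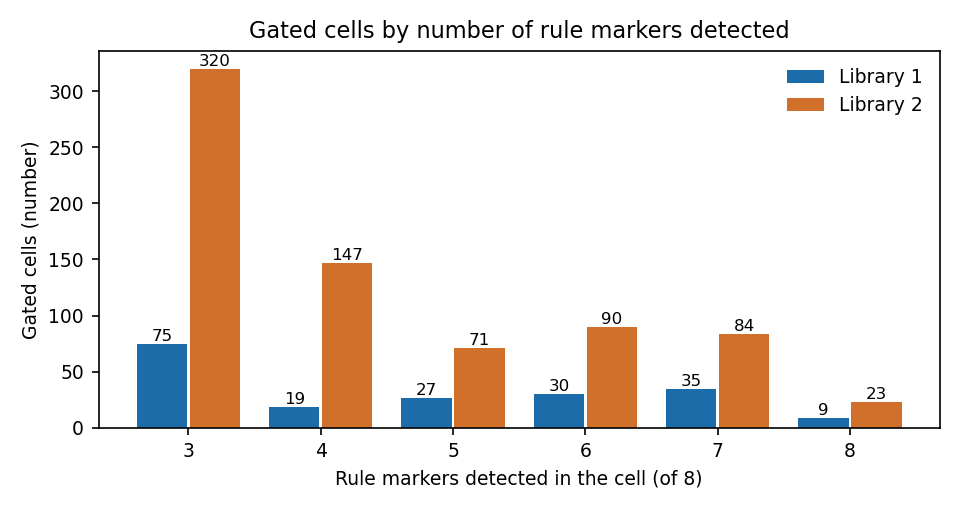
Number of gated cells (vertical axis) by how many of the 8 rule genes were detected (horizontal axis), with library 1 and library 2 side by side. Library 1 holds 75 cells with 3 genes and a further group between 5 and 7, and library 2 falls from 320 cells with 3 genes to 71 with 5.

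The label was checked against genes that the rule did not use. Slc1a3, the glial glutamate transporter GLAST, was at 757 and 217 CPM in libraries 1 and 2 in cells with 5 to 8 rule genes, and at 76.2 and 27.6 CPM in cells with 3 or 4. Aqp4, the water channel of glial end-feet, was at 837 and 251 CPM and at 43.7 and 27.1 CPM, in the same order of cells. The ferroxidase gene Cp was at 1759 and 528 CPM against 149.5 and 59.6 CPM. All 3 genes were thus several times higher in the cells with more rule genes, in both libraries. Non-pigmented ciliary epithelium had them too, with Slc1a3 at 142 and 159 CPM, Aqp4 at 270.0 and 330.1 CPM and Cp at 1501 and 1295 CPM, so they do not set the gated cells apart from it. Kcnj10, the potassium channel Kir4.1, was at 96.1 and 38.9 CPM at 5 to 8 rule genes and at 7.05 and 6.4 CPM at 3 or 4, and had 0 UMIs in non-pigmented epithelium. Many cells with 3 or 4 rule genes went against the label, and those with 5 to 8 also held RNA of other cells, as described next.

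The cells with 3 or 4 rule genes carried RNA of pigment cells. Dct, an enzyme of melanin synthesis, was at 28.6 and 239 CPM in cells with 5 to 8 rule genes and at 8922 and 3688 CPM in cells with 3 or 4. Pmel, which forms the fibrils of melanosomes, was at 22.5 and 73.1 CPM against 3957 and 1103 CPM. The 4 markers listed for pigmented ciliary and iris epithelium, of which Krt8 was at 0 in library 1 with 5 to 8, summed to 100.2 and 276 CPM, against 6159 and 2016 CPM, and the 6 fibroblast markers, all detected, to 3723 and 433 CPM, against 5273 and 1385 CPM. Fibroblast RNA was thus present in both kinds of gated cell in both libraries, at lower levels in library 2. The same markers summed to 234 and 200 CPM in rods and to 89.1 and 97.1 CPM in macrophages. Gja1 (connexin 43) and S100b, often used as glial genes elsewhere, followed the pigment genes, at 8.18 and 14.8 CPM and 4.09 and 19.3 CPM in cells with 5 to 8 rule genes and at 436 and 135 CPM and 389 and 139.7 CPM in those with 3 or 4. The part of pigment cell and fibroblast RNA in each result below was not tested, and counts of calls in the gene lists are given for all gated cells and for those with 5 to 8 rule genes.

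Step by step, Slc1a3 was at 43.1, 329, 774, 839, 779.8 and 564 CPM in library 1 cells with 3, 4, 5, 6, 7 and 8 rule genes, and at 19.6, 40.5, 105, 188, 285 and 268 CPM in library 2. Dct over the same steps was at 9027, 8116, 24.6, 52.5, 26.7 and 0 CPM in library 1 and at 4612, 2192, 363, 208, 213 and 169.9 CPM in library 2. In library 1 Dct dropped between 4 and 5 genes, while in library 2 Slc1a3 climbed more gradually and the 71 cells with 5 genes lay between the others. Cells with more rule genes also had more UMIs in library 2, with a median of 7941.5 UMIs at 5 to 8 genes against 6576 at 3 or 4, but fewer in library 1, with 2802 against 6319.

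**Figure D2:**
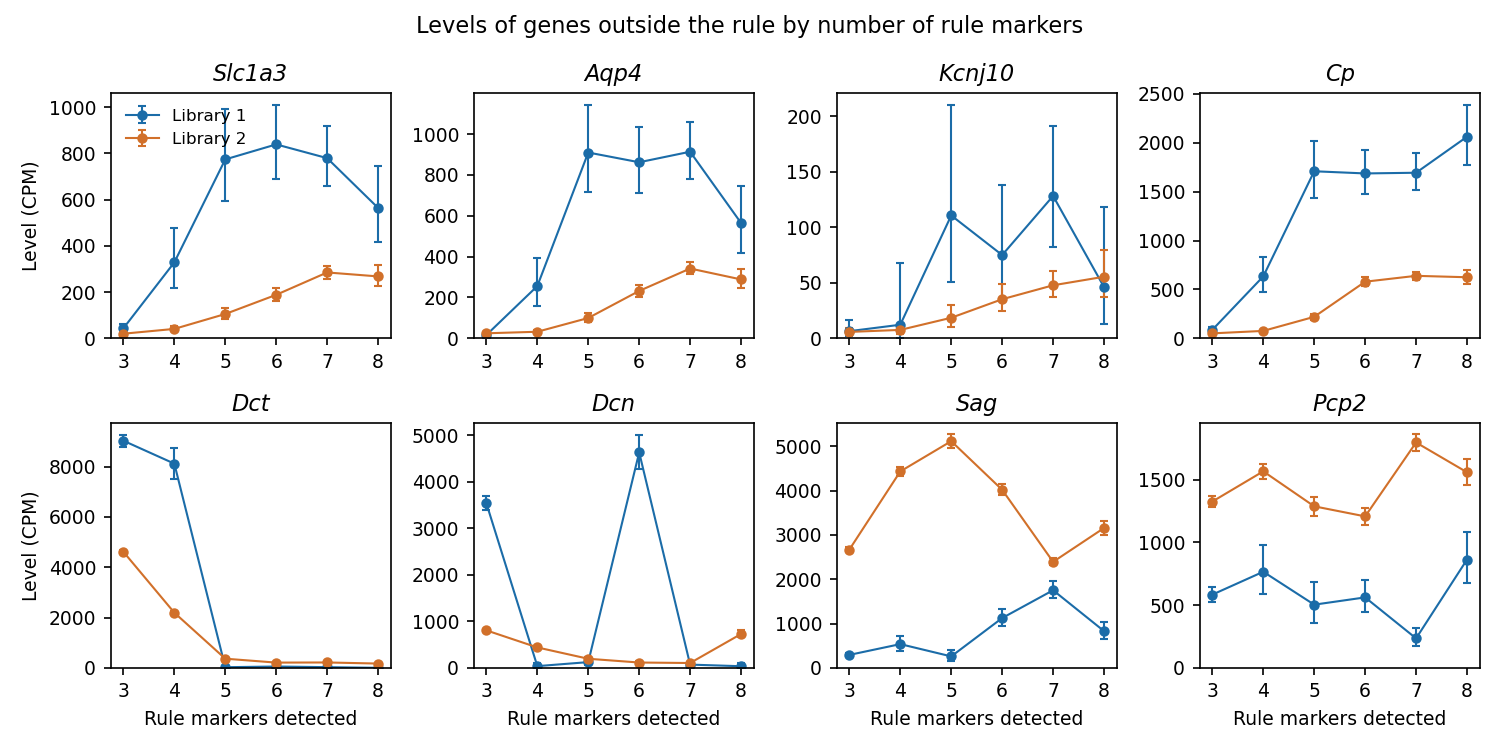
Level in CPM (vertical axis, starting at 0) of 8 genes that the rule did not use, by the number of rule genes detected (horizontal axis), for both libraries. Points are sums over the cells of a library and bars are exact Poisson 95% intervals, which cover counting error only. Glial genes (upper row) are higher at 5 to 8 rule genes than at 3 or 4 when summed, Dct drops after 4 in library 1, Dcn has a further high value of 4631 CPM in library 1 at 6, and Sag and Pcp2 are higher in library 2 at each step.

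Shares of cells differed likewise. In library 1, 88.1% of cells with 5 to 8 rule genes had a Slc1a3 UMI, against 28.7% of those with 3 or 4, and in library 2 the shares were 79.1% and 17.3%. After each cell was thinned to 1000 UMIs the shares were 65.6% and 13.1% in library 1 and 34.2% and 5.34% in library 2. Rods, which lack the gene, had 1.68% and 2.61% after thinning. The median depths of all rods, before thinning, were 1050 and 1327 UMIs. For Kcnj10 the thinned shares were 18.8% and 7.98% at 5 to 8 rule genes, against 1.19% and 1.62% at 3 or 4 and 0.84% and 0.416% in rods. Thinning left out 15 gated cells of library 1 and 41 of library 2 with fewer UMIs. Of the rods it left out 186 of 424 in library 1 and 574 of 2258 in library 2.

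Neuronal RNA was found in the gated cells of both libraries, with 5 to 8 and with 3 or 4 rule genes. Rod RNA was higher in library 2. Sag, the rod arrestin gene, was at 1168 and 3535 CPM in cells with 5 to 8 rule genes and at 320.2 and 3344 CPM in cells with 3 or 4, against 18.7 and 304 CPM in fibroblasts and 16.9 and 323 CPM in macrophages of the same libraries. Pcp2, a gene of rod bipolar cells, was at 481 and 1495 CPM in cells with 5 to 8 rule genes, against 4.3 and 55.8 CPM in fibroblasts. All 6 cone markers were detected, summing to 2371 and 1755 CPM at 5 to 8 rule genes, against 8.61 and 115 CPM in fibroblasts. All 8 rod markers were detected, summing to 4212 and 13257 CPM at 5 to 8 rule genes, against 69.4 and 893 CPM in fibroblasts and 28191 and 17679 CPM in the rod class itself. In library 2 the rod marker sum of the gated cells thus came near that of rods. A gate for rods, at least 3 of those 8 genes and at least 4 UMIs of them, was met by 23.1% of the gated cells in library 1 and 88.3% in library 2. No gate of another of the 13 cell classes was met by 95 gated cells (48.7%) in library 1 and by 61 (8.30%) in library 2, and 28 (14.4%) and 381 (51.8%) met at least 2. The part of this neuronal RNA in the results was not tested. The glial genes were lower in library 2, where Slc1a3, Aqp4 and Cp at 5 to 8 rule genes stood at 217, 251 and 528 CPM, against 757, 837 and 1759 CPM in library 1.

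Markers of other glia varied. The 6 Schwann cell markers summed to 205 and 99.8 CPM in cells with 5 to 8 rule genes and to 346 and 149 CPM with 3 or 4, against 435 and 368 CPM in fibroblasts. The 5 astrocyte markers, which include S100b but not Gfap, summed to 125 and 71.8 CPM in cells with 5 to 8 rule genes and to 411 and 152 CPM with 3 or 4. Of these, Itih3 had 0 UMIs in the gated cells of both libraries and Pax2 had 0 in library 1. The oligodendrocyte markers Mog and Mobp had 0 UMIs in both, and their list of 4 summed to 4.17 and 1.42 CPM. Of the 6 T or NK cell markers none had a UMI in cells with 5 to 8 rule genes. Red cell markers summed to 12549.6 and 1776 CPM in cells with 5 to 8 rule genes, against 5297 and 327 CPM with 3 or 4, and those genes are not used further.

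The 8 rule genes themselves differed in how widely they were found elsewhere. Detection of these same genes defines the split at 5, so their higher levels with 5 to 8 follow from it and are no check. Glul, glutamine synthetase, was at 5112 and 2291 CPM in gated cells with 5 to 8 rule genes and at 863 and 610.4 CPM with 3 or 4, against 1913 and 2049 CPM in non-pigmented ciliary epithelium. Rlbp1, which binds 11-cis-retinoids, was at 1319 and 511 CPM with 5 to 8, against 2416 and 1623 CPM in retinal pigment epithelium, so this gene was higher outside the gated cells. Prss56, a secreted serine protease linked to eye size, was at 200.5 and 36.1 CPM with 5 to 8 and at 1.41 and 2.87 CPM with 3 or 4, and at 0 in retinal pigment epithelium. Crym, a thyroid hormone binding protein, was at 1090.3 and 299 CPM, Gpr37, an orphan receptor, at 879.6 and 265 CPM, Abca8a, a lipid transporter, at 992 and 263 CPM, and the transcription factor gene Sox2 at 162 and 87.8 CPM, all at 5 to 8 rule genes.

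Spc25 (chromosome 2, bases 69193895 to 69206194 of GRCm38, minus strand) encodes a subunit of the Ndc80 complex, which holds kinetochores to spindle microtubules in dividing cells. Spc25 was at 687 and 274 CPM in gated cells with 5 to 8 rule genes, at 26.8 and 63.6 CPM with 3 or 4, and at 13.2 and 27.7 CPM in macrophages. As Spc25 is a rule gene, its difference between the 2 kinds of gated cell follows from the split. The other subunits of the complex did not accompany it. Ndc80 and Nuf2 had 0 UMIs in the gated cells with 5 to 8 rule genes, which allows up to 6.14 CPM in library 1 and 0.764 CPM in library 2 at 3 counts, for counting error only, and Spc24 was at 0 and 0.509 CPM. The proliferation genes Mki67 and Top2a were at 0 and 0.509 CPM and at 0 and 0.255 CPM. Macrophages of library 1 showed that such genes could be counted, with Spc24 at 27 CPM, Mki67 at 26.3 CPM and Top2a at 33.9 CPM.

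For tests, UMIs were summed per class and library, and gated cells were set against the mean of 8 other classes, named for the marker gates that chose them (retinal pigment epithelium, rods, bipolar cells, amacrine cells, melanocytes, fibroblasts, endothelium and macrophages). Non-pigmented ciliary epithelium is not among these 8 and has its own comparison below. Every gate gene was left out of the 11294 tested genes. Fold changes are log2 with their standard error from edgeR's quasi-likelihood test with library as a block, with Benjamini-Hochberg adjustment, and a gene was called at an adjusted p under 0.05 and a change of at least 1. Each class has 2 sums, so the spread comes from all 9 classes together. With library as a block, p-values measure how far the differences between classes varied between these pools. The mean is over log levels, so a gene can be called higher although 1 class exceeds the gated cells. Of the tested genes, 1781 (15.8%) were called higher and 5 (0.0443%) lower in the gated cells, and the median change was 0.28. DESeq2 called 997 higher and 8 lower. With 5 to 8 rule genes only, 1846 (16.7%) were higher and 182 (1.64%) lower. Over 16 gene lists, not all of glial functions, 109 of 244 tested genes were called higher and 0 lower with edgeR in all gated cells. At an unadjusted p under 0.05, 4 were lower, and DESeq2 called 82 higher and 0 lower. The lists were chosen with earlier results of these data known, so these counts are no independent support. Few genes of any kind were called lower, so the 0 says little. Counts per list below are to be read beside the shares of all tested genes, 15.8% and 16.7% higher.

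Among the 14 genes with the largest rises were Qrfpr, Aqp4, Efhd1, S1pr3, Scn7a, Mlc1, Col2a1, Sbspon, Syt15, Omd, Hes5, Slc1a3 and Pgc, with log2 changes between 5.23 and 6.91. Qrfpr (chromosome 3, bases 36179424 to 36222313), the receptor of the neuropeptide QRFP, was at 43.4 and 19.1 CPM in gated cells of libraries 1 and 2, against at most 6.09 and 4.45 CPM in any of the 8 classes (6.91 ± 0.79, adjusted p = 1.34e-04). Aqp4 was at 367 and 131 CPM, against at most 7.94 and 21.6 CPM (6.68 ± 0.47, adjusted p = 5.23e-07). Mlc1 (chromosome 15, bases 88955884 to 88979007), a membrane protein of glial end-feet, was at 165 and 66 CPM, against at most 20 and 34.7 CPM (5.79 ± 0.65, adjusted p = 4.69e-05). For these 3 genes the gated cells lay above each of the 8 classes in both libraries. In non-pigmented epithelium Qrfpr had 0 UMIs, but Aqp4 was at 270.0 and 330.1 CPM (-0.30 ± 0.65, adjusted p = 0.83) and Mlc1 at 165 and 109 CPM (-0.46 ± 0.64, adjusted p = 0.707), and no difference was shown for either. For each of the 14 at least 2 of the other classes were at 0 in each library (5 and 6 for Qrfpr), so these fitted changes depend on the small count that the fit adds and are no bounds.

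Col2a1, the chain of type II collagen, was at 130.2 and 35.1 CPM, against at most 6.15 and 7.71 CPM (5.68 ± 0.61, adjusted p = 3.48e-05), and S1pr3, a receptor of sphingosine-1-phosphate, at 102 and 31 CPM, against at most 12.9 and 29.4 CPM (6.02 ± 0.77, adjusted p = 2.02e-04). Slc1a3 (chromosome 15, bases 8634124 to 8710764) was at 354 and 115 CPM, against at most 29.4 and 27.7 CPM (5.30 ± 0.49, adjusted p = 6.62e-06). Non-pigmented epithelium had Slc1a3 at 142 and 159 CPM, Col2a1 at 176 and 199.6 CPM and S1pr3 at 62.5 and 67.2 CPM, above the gated cells in library 2 for all 3 genes, and none of the 3 was called against it. Omd, a keratan sulphate proteoglycan, was higher in fibroblasts. It was at 35.9 and 5.32 CPM, against 242 and 146 CPM in fibroblasts, and its level in cells with 5 to 8 rule genes, 26.6 and 2.29 CPM, was below that of the remaining gated cells. The 5 genes called lower were Plxna1, Rhog, Elovl1, Sh3bgrl3 and Man1a. Sh3bgrl3 was at 139 and 100.4 CPM in gated cells, against 1480.4 and 1030.2 CPM in macrophages (-1.07 ± 0.26, adjusted p = 0.00735), and Elovl1, an elongase of very long fatty acids, at 28.4 and 12.3 CPM, against 249 and 162 CPM in retinal pigment epithelium (-1.10 ± 0.34, adjusted p = 0.0347).

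Promoters of genes among these 14 are shown as a description, and shared regulation was not tested. RefSeq promoters on GRCm38.p6, from 250 bases before to 50 after the start, matched 10 of the 14 and 7 of the 8 rule genes. They were searched on both strands for a core of SOX sites (ACAAT), a core of RBPJ sites, the DNA-binding partner of Notch (TGGGAA), and a homeodomain core (TAATTA). Capitals mark matches, either as spelled or as the reverse complement, which is ATTGT for the SOX core and TTCCCA for the RBPJ core, while TAATTA is its own. No matches overlap in the 3 promoters printed here, Hes5 on the plus strand at chr4:154960673-154960972, Mlc1 on the minus strand at chr15:88978504-88978803 and Slc1a3 on the minus strand at chr15:8710758-8711057.
Hes5: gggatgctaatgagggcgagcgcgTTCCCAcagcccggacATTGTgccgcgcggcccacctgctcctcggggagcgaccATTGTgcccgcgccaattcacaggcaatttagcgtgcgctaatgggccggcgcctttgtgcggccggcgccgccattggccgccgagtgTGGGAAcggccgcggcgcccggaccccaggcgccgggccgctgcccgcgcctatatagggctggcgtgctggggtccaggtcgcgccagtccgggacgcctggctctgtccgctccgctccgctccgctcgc
Mlc1: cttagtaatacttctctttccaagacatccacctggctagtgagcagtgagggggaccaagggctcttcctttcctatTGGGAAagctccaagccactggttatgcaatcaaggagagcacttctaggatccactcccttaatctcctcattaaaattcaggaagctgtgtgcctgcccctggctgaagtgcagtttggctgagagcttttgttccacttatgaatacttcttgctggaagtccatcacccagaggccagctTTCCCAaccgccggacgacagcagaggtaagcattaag
Slc1a3: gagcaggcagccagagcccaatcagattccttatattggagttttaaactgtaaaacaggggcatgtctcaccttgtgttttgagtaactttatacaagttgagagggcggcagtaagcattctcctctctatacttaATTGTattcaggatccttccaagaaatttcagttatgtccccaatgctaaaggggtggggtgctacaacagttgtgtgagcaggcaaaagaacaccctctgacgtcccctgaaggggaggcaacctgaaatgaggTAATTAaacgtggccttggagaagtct
Hes5, a repressor switched on by Notch, has 2 matches to the RBPJ core and 2 to the SOX core. Mlc1 has 2 of the RBPJ core, and Slc1a3 has 1 of the SOX core and 1 of the homeodomain core. The RBPJ core was in 5 of the 10 promoters, against 25.6% of all 32851 promoters, the SOX core in 3 of 10, against 31.0%, and the homeodomain core in 1 of 10, against 5.29%. Of the 7 rule gene promoters 1, that of Abca8a, had any of the 3.

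Transporters of glutamate and GABA were higher in part. Of 15 tested genes of glutamate and amino acid handling, 7 were higher, with a median change of 0.76. Slc6a11, the GABA transporter GAT3, was at 123 and 64.2 CPM in gated cells, against 166 and 149 CPM in amacrine cells (3.92 ± 0.65, adjusted p = 6.76e-04). With 5 to 8 rule genes 6 were higher and 1 lower, and Slc7a11, the cystine and glutamate exchanger, was no longer called (2.31 ± 0.88, adjusted p = 0.0735).

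Of 17 tested genes of potassium, water and acid-base transport, 10 were higher, with a median change of 2.10, and 10 with 5 to 8 rule genes. Kcnj10 was at 43.4 and 21.5 CPM in gated cells, against at most 23.8 and 27.7 CPM, in macrophages (5.14 ± 0.70, adjusted p = 2.30e-04). In library 2 the gated cells thus lay below macrophages, and at 5 to 8 rule genes they lay above, at 96.1 and 38.9 CPM. Car2, carbonic anhydrase 2, was at 673 and 595 CPM, against 413 and 578 CPM in bipolar cells (3.46 ± 0.39, adjusted p = 2.73e-05). Ttyh1, a chloride channel family member, was at 336 and 305 CPM, below bipolar cells at 879 and 727 CPM (3.14 ± 0.34, adjusted p = 1.83e-05).

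Of 11 tested retinoid genes, 5 were higher in all gated cells, and 3 were higher and 1 lower with 5 to 8. Aldh1a1, which makes retinoic acid, was at 318 and 95.7 CPM in gated cells, against at most 65.4 and 58.8 CPM (3.73 ± 0.36, adjusted p = 7.45e-06), and reached 683 and 172 CPM at 5 to 8. Crabp2, which carries retinoic acid to the nucleus, was at 18.4 and 10.2 CPM (4.14 ± 0.88, adjusted p = 0.00519), but at 2.05 and 3.05 CPM with 5 to 8, where it was not called (1.47 ± 0.95, adjusted p = 0.33). Stra6, the receptor of retinol binding protein, was at 45.9 and 19.5 CPM (2.10 ± 0.57, adjusted p = 0.0186), and in cells with 5 to 8 at 0 and 3.31 CPM, with a change of -1.64 that missed the threshold.

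Transcription factors of the optic cup and of glia were higher in most cases. Of 15 tested, 10 were higher in all gated cells, and 13 of the same 15 with 5 to 8 rule genes, the medians being 1.77 and 1.76. Rax, needed for eye formation, was at 185 and 149 CPM in gated cells, against 157 and 148 CPM in rods (3.80 ± 0.29, adjusted p = 5.36e-07). Lhx2 was at 148 and 69 CPM, against 59.7 and 40.6 CPM in retinal pigment epithelium (3.24 ± 0.40, adjusted p = 5.28e-05). Six6 at 134 and 79 CPM lay below amacrine cells in both libraries, at 217 and 167 CPM (3.36 ± 0.34, adjusted p = 9.74e-06). Sox8 and Nr2e1 passed the filter on low counts only through the cells with 5 to 8 rule genes, where they were at 67.5 and 29.3 CPM and at 59.3 and 21.1 CPM, and they are not counted here.

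Of 14 tested Notch pathway and Id genes, 7 were higher, and likewise 7 at 5 to 8 rule genes. Hes5 (chromosome 4, bases 154960923 to 154962371) was at 40.1 and 20.4 CPM in gated cells, against at most 4.06 and 13.5 CPM (5.31 ± 0.76, adjusted p = 3.62e-04), and stood at 47 and 28.3 CPM with 5 to 8, against 35.3 and 13.7 CPM with 3 or 4. The receptor gene Notch1 was at 75.1 and 35.7 CPM, below endothelium at 164 and 245 CPM (2.15 ± 0.46, adjusted p = 0.0036). Hey2 was at 30.9 and 17.8 CPM, against at most 6.15 and 14 CPM (3.60 ± 0.59, adjusted p = 5.97e-04), and the ligand gene Jag1 at 20.9 and 42 CPM, against 112 and 67.7 CPM in rods (2.02 ± 0.54, adjusted p = 0.0147).

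**Figure D3:**
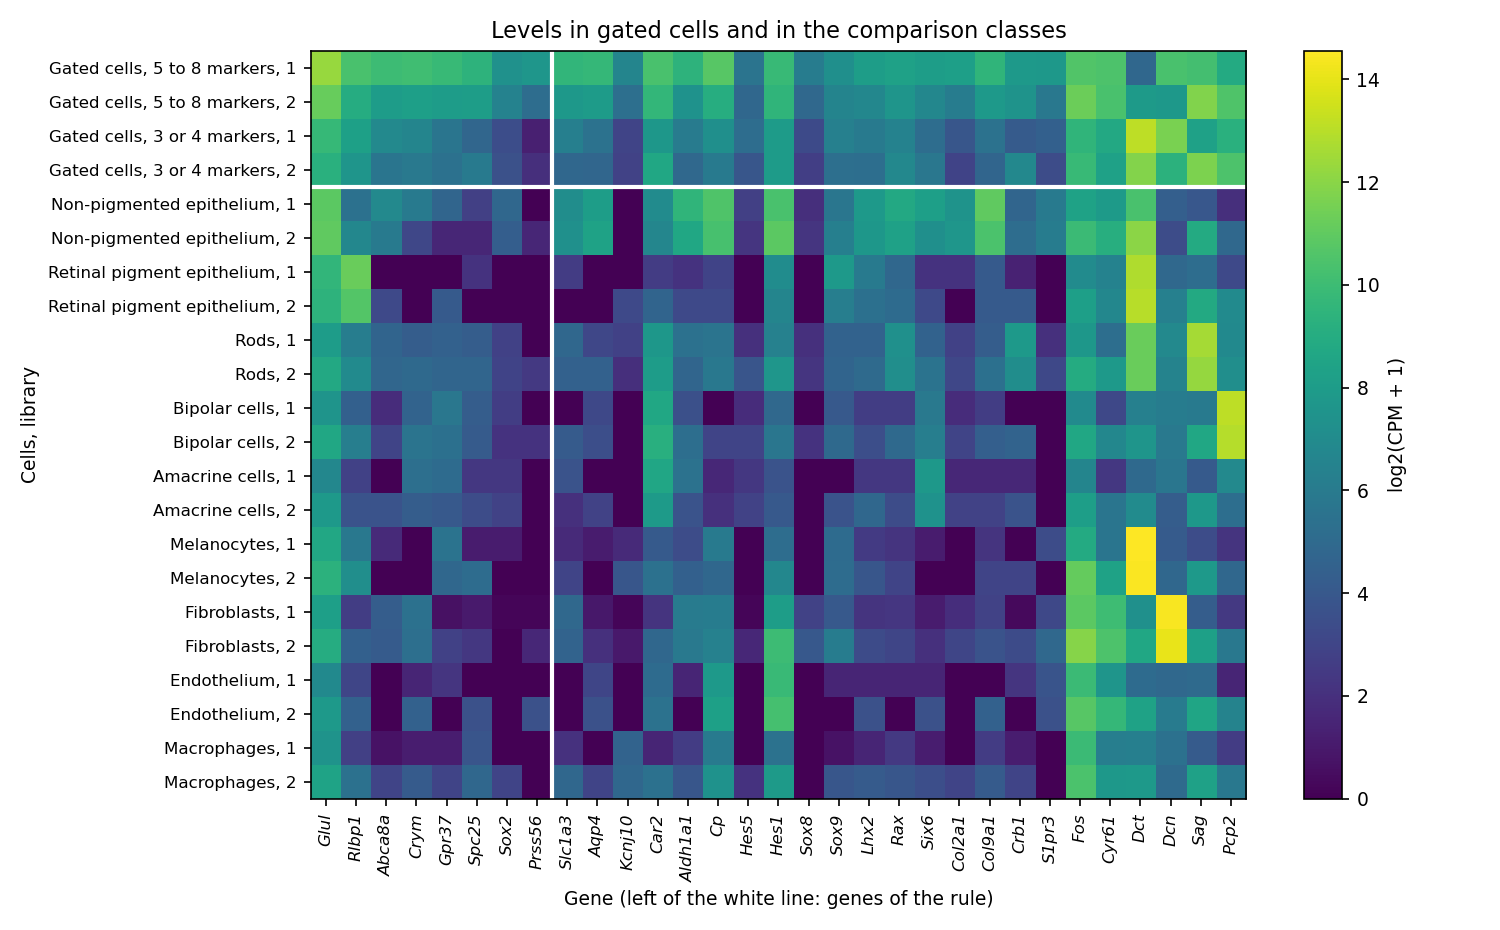
Levels as log2(CPM + 1), in colour, of the 8 rule genes and 23 others (columns) in gated cells with 5 to 8 and 3 or 4 rule genes and in 9 comparison classes (rows), each with library 1 above library 2. The upper 2 rows are bright over the glial genes, the next 2 over Dct, and non-pigmented epithelium carries Slc1a3, Aqp4, Cp and Col9a1 but had 0 UMIs of Kcnj10 in both libraries.

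Müller glia anchor both limiting membranes. Of 16 tested genes of junctions and adhesion, 8 were higher, and 9 were higher and 1 lower with 5 to 8 rule genes. Crb1, a polarity protein of the outer limiting membrane, was at 103 and 143 CPM in gated cells, against 226 and 139.8 CPM in rods (4.08 ± 0.52, adjusted p = 7.38e-05). It was below rods in library 1 and near them in library 2, and reached 227 and 179.7 CPM at 5 to 8 rule genes. Cdh2 (N-cadherin) was at 289.7 and 133 CPM, against 127 and 88.4 CPM in bipolar cells (2.79 ± 0.25, adjusted p = 3.61e-06). Of 17 tested genes of the inner limiting membrane matrix, 7 were higher, and at 5 to 8 rule genes 5 were higher, with a median of -0.17 against 1.15 in all gated cells. Col9a1, a chain of type IX collagen, was at 324 and 117 CPM, against 18.4 and 39.9 CPM in rods (4.55 ± 0.39, adjusted p = 1.95e-06), but 2061 and 1386 CPM in non-pigmented epithelium, well above the gated cells. Lama2, a laminin chain, was higher in all gated cells, at 20.9 and 8.04 CPM (2.65 ± 0.66, adjusted p = 0.0109), but at 2.05 and 2.04 CPM with 5 to 8, with a change of -0.17 that missed the threshold.

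In antioxidant defence and metal binding 6 of 19 tested genes were higher, in lipid and lipoprotein handling 4 of 15, and in glycolysis, glycogen and lactate 7 of 16. With 5 to 8 rule genes 6 antioxidant genes were higher and 2 lower, 5 lipid genes were higher and 2 lower, and 6 glycolysis genes were higher. Over all tested genes, 15.8% were called higher in all gated cells, and 16.7% higher and 1.64% lower with 5 to 8. Cp was at 807 and 277 CPM in gated cells, against 225 and 312 CPM in endothelium (4.11 ± 0.33, adjusted p = 1.10e-06), so library 2 lay below endothelium unless only cells with 5 to 8 rule genes were taken, at 1759 and 528 CPM. Prdx6, a peroxiredoxin, was at 1281 and 524 CPM, against 489 and 576 CPM in retinal pigment epithelium (2.02 ± 0.25, adjusted p = 5.35e-05). Mfge8, a bridge to dying cells, was at 401 and 218 CPM (2.51 ± 0.35, adjusted p = 1.36e-04), and Clu (clusterin) at 2909.8 and 1024 CPM (2.27 ± 0.44, adjusted p = 0.00186). For neither of these did the gated cells lie above each of the 8 other classes in both libraries. Pygb and Pygm, the brain and muscle glycogen phosphorylases, changed by 1.47 and 1.81 and were both called. Lpl, lipoprotein lipase, changed by 2.14 in all gated cells but by -0.59 with 5 to 8, and Slc2a1, the glucose transporter GLUT1, by 1.37 and 0.94, and neither was called with 5 to 8.

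Of 17 tested gliosis genes 9 were higher, and 8 with 5 to 8 rule genes. Gfap, the intermediate filament of reactive glia, was at 46.8 and 10.4 CPM in gated cells and missed the threshold (4.42 ± 1.53, adjusted p = 0.0635), and at 5 to 8 rule genes it was called, at 65.5 and 18.3 CPM (4.75 ± 1.44, adjusted p = 0.0283). In library 2 macrophages it stood at 142 CPM, but only 1.67% of those 60 cells had a Gfap UMI. In library 1 the share of macrophages was 0%. Lcn2 (lipocalin 2) was at 40.9 and 13.8 CPM, against 105 and 35.5 CPM in other classes (4.15 ± 0.80, adjusted p = 0.00252). Nes (nestin) was at 4.09 and 4.33 CPM with 5 to 8 rule genes.

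Of 19 tested immediate early and dissociation response genes, 7 were higher in all gated cells, and 11 were higher and 2 lower with 5 to 8 rule genes. Fos was at 1072 and 1624 CPM in gated cells (1.02 ± 0.24, adjusted p = 0.0074) and at 1571 and 2465 CPM with 5 to 8, against 1882 and 3865 CPM in fibroblasts and 211 and 502 CPM in rods. The fibroblasts were thus higher than the gated cells in both libraries. Cyr61, a secreted matrix protein induced early, was at 839 and 792 CPM, against 1046 and 1462 CPM in fibroblasts (2.65 ± 0.38, adjusted p = 1.77e-04). The tissue of both libraries had been digested with collagenase, and the part of that step was not tested.

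Of 18 tested secreted growth factors and Wnt modulators, 12 were higher in all gated cells, against 6 higher and 3 lower with 5 to 8. Edn3 (endothelin 3), the Wnt inhibitor gene Dkk2 and Sfrp2 were called in all gated cells, with changes of 4.58, 3.56 and 3.12, and not with 5 to 8, with 1.16, 1.60 and 1.27. Edn3 stood at 6.14 and 5.09 CPM in cells with 5 to 8 and at 95.9 and 40.8 CPM in cells with 3 or 4. Dkk3, of the same family as Dkk2, showed the opposite order, at 2007 and 648 CPM with 5 to 8 and 782 and 302 CPM with 3 or 4. Of 18 tested receptors 9 were higher, and 6 of 17 with 5 to 8 rule genes. Among the 9 were Egfr at 34.2 and 10.4 CPM (3.19 ± 0.66, adjusted p = 0.00364) and Ptprz1, a receptor phosphatase of glia, at 107 and 76.9 CPM (4.08 ± 0.47, adjusted p = 4.54e-05). Ptprz1 was lower with 5 to 8 rule genes, at 57.3 and 70.8 CPM, than with 3 or 4, at 141 and 82.3 CPM. For neither Egfr nor Ptprz1 did the gated cells lie above each of the 8 other classes in both libraries. In 2 short lists the share called higher was below the 15.8% of all tested genes. Of 11 tested cell cycle genes 1 was higher, and 1 was higher and 1 lower with 5 to 8 rule genes. The higher one was Cdkn1c, an inhibitor of cyclin-dependent kinases, at 160.3 and 90.9 CPM (1.91 ± 0.32, adjusted p = 5.75e-04). Its level was lower with 5 to 8 rule genes, at 79.8 and 59.6 CPM, than with 3 or 4, at 216 and 118 CPM. Of 7 tested crystallins and small heat shock proteins 1 was higher, Cryab at 709 and 322 CPM (1.99 ± 0.33, adjusted p = 5.24e-04), and 1 was higher and 1 lower with 5 to 8. For neither Cdkn1c nor Cryab did the gated cells lie above each of the 8 other classes in both libraries.

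Of the 70 genes named in this comparison by the rule given under processing, 65 were higher. In 50 of these 65 the level with 5 to 8 rule genes was above that with 3 or 4 in both libraries, and in 15 it was below in both. A call was kept by 61 of the 70 with 5 to 8 rule genes and lost by 9, Slc7a11, Crabp2, Stra6, Lpl, Slc2a1, Lama2, Edn3, Dkk2 and Sfrp2. Each of the 9 had its lower level in the cells with 5 to 8. The gated cells lay above each of the 8 other classes in both libraries for 17 of the 65, and with 5 to 8 rule genes for 25.

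**Figure D4:**
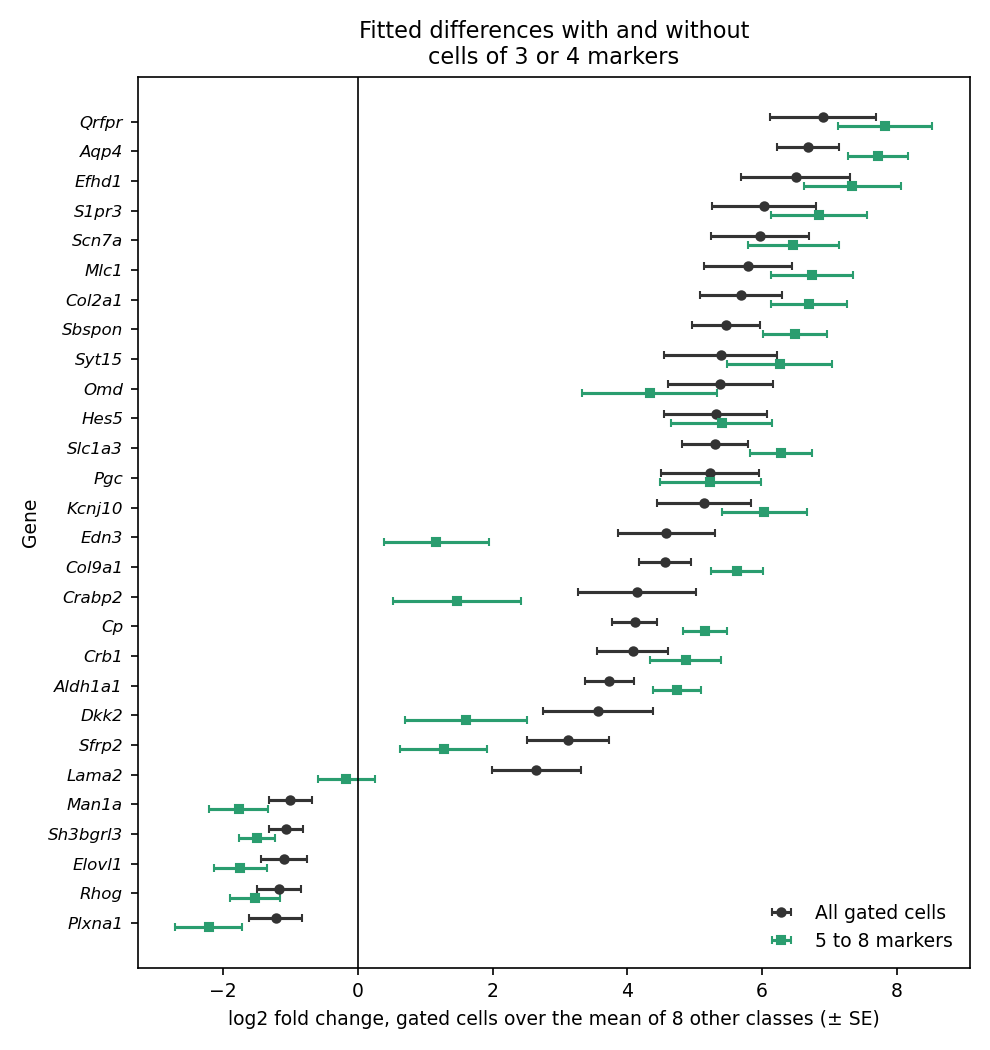
Log2 fold change of gated cells over the mean of 8 other classes (horizontal axis, points with standard errors) for named genes (vertical axis), for all gated cells (circles) and for those with 5 to 8 rule genes (squares). Qrfpr, Aqp4 and Slc1a3 move to the right with 5 to 8, to 7.82, 7.72 and 6.28, whereas Edn3, Crabp2, Dkk2, Sfrp2 and Lama2 move towards or past 0.

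Non-pigmented ciliary epithelium, which secretes aqueous humour, entered a fit of 12 classes and 12100 genes with 42 and 47 cells. The labels name ciliary epithelium as the source and give no layer. These cells were taken without regard to the rod gate because otherwise only 16 cells were left in library 2. In the gated cells 562 genes (4.64%) were higher and 595 (4.92%) lower. Of the 65 genes named above as higher than the mean of the 8 classes, 29 were above non-pigmented epithelium in both libraries and 18 below it in both, and with 5 to 8 rule genes 35 were above and 13 below. Among transcription factors 0 of 16 tested were called by edgeR and 0 by DESeq2, with 2 higher and 4 lower at an unadjusted p under 0.05. With 5 to 8 rule genes 1 of the same 16 was higher, Sox8. Slc1a3 was at 354 and 115 CPM in gated cells, against 142 and 159 CPM (0.35 ± 0.56, adjusted p = 0.76), so a difference was not shown. With cells that met another gate left out, 686 genes were called in all in place of 1157 (9.56%), and with 5 to 8 rule genes 813 (6.82%) were higher and 985 (8.26%) lower.

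Other transporters differed. Of 15 tested genes of glutamate and amino acid handling 4 were higher and 4 lower than in non-pigmented epithelium, and 3 and 4 with 5 to 8 rule genes. Slc1a2, the glutamate transporter GLT-1, was at 124 and 286 CPM in gated cells, against 0 and 15.4 CPM (4.33 ± 0.96, adjusted p = 0.00795). Slc6a13, the GABA transporter GAT2, ran the other way, at 9.18 and 6.03 CPM against 1162 and 873 CPM (-7.46 ± 0.69, adjusted p = 7.77e-06), as did the taurine transporter gene Slc6a6, at 435 and 1088 CPM against 4309 and 3851 CPM (-2.83 ± 0.59, adjusted p = 0.00526). Kcnj10 was at 43.4 and 21.5 CPM, against 0 UMIs in non-pigmented epithelium, and was called (adjusted p = 0.029 in edgeR), at least 7.05-fold higher at a floor of 3 counts over both libraries.

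Of 17 tested genes of the inner limiting membrane matrix 0 were higher and 6 lower by edgeR and by DESeq2, 1 was higher at an unadjusted p under 0.05, and the median was -1.17 where that of all genes was 0.14. With 5 to 8 rule genes 10 were lower. Col18a1, the source of endostatin, was at 66 and 24.6 CPM in gated cells, against 1674 and 1278 CPM (-5.34 ± 0.51, adjusted p = 7.77e-06). Col9a1 was at 324 and 117 CPM, against 2061 and 1386 CPM (-3.18 ± 0.60, adjusted p = 0.0028), and the laminin gene Lama5 at 20.9 and 10.5 CPM, against 96.6 and 72.9 CPM (-2.79 ± 0.51, adjusted p = 0.00221). Gpx3, a secreted glutathione peroxidase, was at 54.3 and 25.3 CPM, against 3556 and 1777 CPM (-6.36 ± 0.71, adjusted p = 1.90e-05).

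The largest rises over non-pigmented epithelium were in genes with 0 UMIs there, Eef1a2, Ifi27l2a, Gsg1, Tagln3, Ebf1 and Mmd2. Eef1a2, a translation factor of neurons and muscle, was at 61 and 147 CPM in gated cells and at least 39.6-fold higher. Tagln3, a neuronal gene, was at 36.7 and 124 CPM and at least 32.9-fold higher. Mmd2 was at 81 and 45.6 CPM and at least 14.6-fold higher, and was the only one of the 6 to be higher at 5 to 8 rule genes than over all gated cells in both libraries, at 168 and 63.6 CPM. The largest falls were in Npvf, Tmprss11e, Defb9, Crhbp, F5 and Slc13a4. Crhbp, which binds corticotropin-releasing hormone, was at 6.68 and 9.57 CPM in gated cells, against 2416 and 1495 CPM (-8.27 ± 0.79, adjusted p = 7.77e-06). Npvf, a neuropeptide precursor, had 1 UMI in the gated cells and 82 in non-pigmented epithelium, a ratio of CPM of 0.0011 (2.76e-05 to 0.00632) with a counting interval.

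Retinal pigment epithelium, which regenerates 11-cis-retinal, had 119 and 44 cells. Of the 11294 genes 990 (8.77%) were higher and 769 (6.81%) lower in the gated cells, and with 5 to 8 rule genes 1204 (10.9%) and 967 (8.72%). Of 19 immediate early and dissociation response genes 13 were higher and 0 lower by edgeR, 0 were lower at an unadjusted p under 0.05 or by DESeq2, with a median of 2.38 where that of all genes was 0.39, and 14 were higher with 5 to 8 rule genes. Fos was at 1072 and 1624 CPM in gated cells, against 128 and 292 CPM (2.39 ± 0.39, adjusted p = 6.51e-04). Of 11 retinoid genes 1 was higher, Aldh1a1, at 318 and 95.7 CPM against 3.32 and 8.12 CPM, which is 3 UMIs and a ratio of 29.8 (10.2 to 145) with a counting interval (adjusted p = 0.00105 in edgeR), and 5 were lower, or 1 and 6 with 5 to 8. Rgr, a retinal photoisomerase opsin also known from Müller glia, was at 74.3 and 10.5 CPM in gated cells, against 5733 and 7508 CPM (-7.59 ± 0.87, adjusted p = 3.43e-05), and at 14.3 and 6.87 CPM with 5 to 8 rule genes.

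The largest rises over retinal pigment epithelium were in genes with 0 UMIs there, Aqp4, Anxa1, Lin7a, Car8, B3galt2 and Sbspon. Aqp4 was at least 38.8-fold higher, and Anxa1, which encodes annexin A1, at 209 and 81 CPM, was at least 23.4-fold higher. Lin7a was at 111 and 177 CPM, Car8 at 47.6 and 153 CPM and B3galt2 at 59.3 and 161 CPM in gated cells. Each of these was higher in library 2, as were Sag and Pcp2, and the part of neuronal RNA was not tested. The largest falls were in Pon1, Slc7a10, Rgr, Slc22a8, Slc6a20a and Slc6a13, 4 of them solute carriers. Pon1 (paraoxonase 1) was at 4.17 and 2.36 CPM in gated cells, against 705 and 763 CPM (-8.51 ± 0.54, adjusted p = 2.20e-06).

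Rods, with the most cells over both libraries at 424 and 2258 cells, gave the fewest calls, 64 genes (0.567%) higher and 12 (0.106%) lower in the gated cells, and 312 (2.81%) and 177 (1.6%) with 5 to 8 rule genes. The rod class itself held other RNA, with Dct at 2359 and 2410.4 CPM and Igkc, an immunoglobulin gene, at 123 and 54.8 CPM. Aqp4 was at 367 and 131 CPM in gated cells, against 7.68 and 21.6 CPM in rods (3.81 ± 0.65, adjusted p = 0.0177), Cp at 807 and 277 CPM, against 47.6 and 55.3 CPM (3.27 ± 0.52, adjusted p = 0.016), and Slc1a3 at 354 and 115 CPM, against 27.7 and 21.8 CPM (3.07 ± 0.66, adjusted p = 0.0459). The tetraspanin gene Cd9 was at 883 and 349 CPM, against 96.8 and 91.8 CPM (2.55 ± 0.45, adjusted p = 0.0203). Of 19 immediate early and dissociation response genes 2 were called higher, and 12 with 5 to 8 rule genes. The number of calls in either direction, 76 (0.673%), moved more than in the other comparisons, to 126 with DESeq2, 15 without the library block, 489 (4.41%) with 5 to 8 rule genes and 1691 with cells that met another gate left out.

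The 6 largest rises over rods were in C1qtnf2, Mgp, Aqp4, Tril, Tmem100 and Cyp2f2. Tril, a helper of Toll-like receptors, was at 48.4 and 16.5 CPM in gated cells, against 1.54 and 1.54 CPM (3.81 ± 0.62, adjusted p = 0.016), and at 98.2 and 31.1 CPM with 5 to 8 rule genes. Mgp, matrix Gla protein of fibroblasts and vessels, was at 665 and 188 CPM, against 20 and 35.3 CPM (3.88 ± 0.65, adjusted p = 0.016), and at 137 and 93.9 CPM with 5 to 8. Tmem100 and Cyp2f2 were not called with 5 to 8 (0.18 ± 0.78, adjusted p = 0.973 and 1.13 ± 0.82, adjusted p = 0.571), nor was C1qtnf2 (3.22 ± 0.99, adjusted p = 0.0777), which had 3 UMIs in rods and a ratio over them of 22.6 (7.52 to 112) in all gated cells. The 6 largest falls were in Igkc, Wfdc17, Slc6a13, Mgl2, Glmn and Cep164. Cep164, a centriole protein, was at 67.6 and 171 CPM in gated cells, against 387 and 299 CPM in rods (-1.77 ± 0.38, adjusted p = 0.04).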

How the data were processed

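The authors deposited UMI counts per gene and cell barcode for 2 droplet libraries, with gene lists and barcode lists (identifiers, no unit). The deposited counts were made with Cell Ranger (version 3.1.0 per the file headers), and CASAVA 1.8 and Seurat are among the tools in the submitters' processing notes, with the builds mm10 and GRCm38. The notes do not state the filters behind the barcode lists. The 2 libraries held 4764 and 6220 barcodes and 22510387 and 30683405 UMIs, with at least 500 UMIs per barcode.

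Cells were kept at 500 detected genes or more and at most 30% mitochondrial UMIs. Gated cells were found by the rule given in the report, and 13 other classes by gates of at least 3 listed markers with at least 4 UMIs. A cell that met more than 1 of the other gates was left out of those classes, and classes with fewer than 20 cells in a library were left out of the fit. Doublets were not removed. UMIs were summed per class and library, 18 sums of 9 classes, with 87 gate genes left out and low genes removed by filterByExpr. edgeR 4.0.16 (TMM, quasi-likelihood F test, library as a block, the tool's own prior count for fold changes, standard errors as the change over the root of F, 8 residual degrees of freedom) was run in R 4.3.3 with Benjamini-Hochberg adjustment, and DESeq2 1.42.0 as an alternative. The classes of a library come from the same pool of eyes, which is what the block pairs. The fit with non-pigmented epithelium had 24 sums of 12 classes and 11 residual degrees of freedom. The script was tested on simulated counts. Intervals are exact Poisson for levels and exact Clopper-Pearson for shares, at 95%, and cover counting error only. A floor of 3 counts was used over both libraries for lower bounds.

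The genes named are the 14 called genes with the largest rise and the 6 with the largest fall against the mean of the other classes (5 were called), the 6 in each direction for each pairwise comparison, and up to 4 called genes per list and direction, each changed the same way in either library and with 20 UMIs or more on its higher side in each. Gate, mitochondrial, ribosomal, predicted and RIKEN genes were not named. Any member of a list could be given as an example. Coordinates come from GENCODE M21 on GRCm38, which held 32655 of the 33456 identifiers. The members, the gates and the lists were chosen with earlier results of these data known. The cut at 5 rule genes and the setting aside of the rod gate for non-pigmented epithelium were chosen after the data were seen. Some results are not reported here. Alternatives are given in the closing section.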

Additional observations from a re-analysis of the deposited data

How the results depend on the processing

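Genes were named only if both libraries had the same direction. The 106 gene results therefore could not reverse with either library left out, and their kept direction is no check. Without the library block, which pairs sums of 1 pool, calls numbered 1826 against the mean of the other classes, 734 against non-pigmented epithelium, 1556 against retinal pigment epithelium and 15 against rods, and 95 of 106 gene results kept their call.

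Counts of calls moved by over 1.5 times as follows. Against the mean of the other classes, where 1786 genes were called in all, DESeq2 called 1005. With gated cells that met another gate left out the count there moved less, to 1289. Only 712 of these calls were among the 1786, however, and 143 of the 1289 were lower. Against non-pigmented epithelium (1157), calls numbered 2061 with no filter on low counts, 728 at a mitochondrial limit of 15%, 686 with gated cells that met another gate left out and 1798 with at least 5 rule genes. Against retinal pigment epithelium (1759), calls numbered 986 with such cells left out. Against rods (76), calls numbered 970 with no filter, 126 with DESeq2, 238 at 15%, 236 with at least 4 rule genes, 1691 with cells of another gate left out, 489 with at least 5 and 199 with the rod gate set aside. The share of gated cells moved to 3.1% in library 1 and 7.59% in library 2 with at least 4 rule genes, to 2.61% and 4.90% with at least 5, and to 2.46% and 1.12% with cells of another gate left out. With at least 1000 detected genes it was 18.2% in library 2. The cause of these shifts was not tested.

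Against the mean of the other classes, Stra6 reversed to -0.24 with at least 4 rule genes, to -1.64 with at least 5 and to -3.05 with at least 5 and the rod gate set aside. Lpl and Lama2 reversed to -0.59 and -0.17 with at least 5, and to -1.31 and -0.82 with the rod gate also set aside. With the rod gate alone set aside Plxna1 reversed to 0.15. With gated cells that met another gate left out, the reversed values were -2.15 for Omd, -2.89 for Crabp2, -4.02 for Edn3, -3.68 for Dkk2, -0.88 for Serpinf1 and -5.33 for Sfrp2, and, against rods, -2.67 for C1qtnf2, -0.94 for Mgp and -3.24 for Cyp2f2. That setting left 95 and 61 cells.

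The planned gates left non-pigmented epithelium with too few cells in library 2, so that comparison was not run under them. Without 1 library no residual degrees of freedom remain and no calls were counted. Depth limits the rarest transcripts most in library 1, where the 101 cells with 5 to 8 rule genes allow up to 6.14 CPM at 0 UMIs.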
